A study of Mus musculus with 14 samples.

Results

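The small heat shock proteins of mouse skeletal muscle were followed with the co-chaperone Bag3 and the chaperones Hspa8 and Hsp90aa1 in muscle exposed to follistatin. They were taken by gene symbol: Hspb1, Hspb2, Hspb3, Hspb6, Hspb7, Hspb8, Cryab, Bag3, Hspa8 and Hsp90aa1, which are 10 of the 24386 genes of the files. The choice was made with earlier results of these data known, so their counts beside those of all genes are descriptions. All 10 passed the filter of a mean of at least 1 FPKM in each comparison. FPKM counts sequenced fragments relative to transcript length and library size, so levels of different genes can be set side by side. The libraries held polyA RNA of tibialis anterior, the shin muscle that lifts the foot, from C57Bl/6 mice. Follistatin is a secreted protein that binds myostatin and activins, which restrain muscle growth. Day 3 had 3 control libraries and 4 with follistatin, day 7 had 2 of each kind, and day 14 had 1 control and 2 with follistatin. The route by which follistatin was given, what the controls received and whether replicates were separate animals are not given in the sources used here, so p-values measure the spread between these libraries, which may be technical.

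Small heat shock proteins bind unfolding proteins without using ATP and hold them until ATP-driven chaperones of the HSP70 and HSP90 families refold them. BAG3 joins HSPB8 to HSP70 and carries damaged filamin and other Z-disc proteins of muscle into selective autophagy, a route known as chaperone-assisted selective autophagy. Striated muscle is rich in these proteins, and CRYAB and HSPB1 are known to bind desmin, actin and titin under mechanical load. Genes of this family are classical targets of heat shock factors, which bind inverted GAA units in promoters.

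RefSeq promoter windows of 300 bases (250 before and 50 from the start of transcription, GRCm38.p6, which has the coordinates of mm10) were found for 6 of the 10 genes, with 2 windows for Hspb6. The motif GAANNTTC, a pair of inverted GAA units and its own reverse complement, was searched on both strands. It was present in 5 of these 7 windows and in 7.86% of 32851 windows of all genes. Stretches are shown for 3 of the genes called at day 14 and for Bag3, which was not called, because they carry this motif. Letters in capitals are the motif, and the first 3 stretches run from 150 bases before to 30 bases after the start.
Hspb1, chr5:135887769-135887948, plus strand: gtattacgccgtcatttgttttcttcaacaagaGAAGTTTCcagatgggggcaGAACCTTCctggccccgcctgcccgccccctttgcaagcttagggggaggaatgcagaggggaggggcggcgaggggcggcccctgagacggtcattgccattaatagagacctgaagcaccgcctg
Hspb6, chr7:30553151-30553330, plus strand: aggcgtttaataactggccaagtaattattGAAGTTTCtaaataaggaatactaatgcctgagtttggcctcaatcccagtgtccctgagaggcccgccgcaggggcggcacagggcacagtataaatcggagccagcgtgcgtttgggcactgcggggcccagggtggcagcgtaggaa
Hspb8, chr5:116422835-116423014, minus strand: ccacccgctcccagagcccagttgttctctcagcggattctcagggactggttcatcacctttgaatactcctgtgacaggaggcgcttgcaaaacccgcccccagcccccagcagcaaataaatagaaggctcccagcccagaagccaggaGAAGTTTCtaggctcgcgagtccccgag
Bag3, the last 30 bases of its window, chr7:128523603-128523632, plus strand: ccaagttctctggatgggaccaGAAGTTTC

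Hspb1 held the motif at 2 places, whose first bases lay at -117 and -97 from the start, and 0.344% of all windows held it at least 2 times. In Hspb6 it began at -120, in Hspb8 at 3, in Bag3 at 43 and in Hspb3 at -224. Hspb7 and the upstream window of Hspb6 did not hold these letters. The letters GAAGTTTC were the same in Hspb1, Hspb6, Hspb8 and Bag3, while their levels under follistatin were not alike, as given below. The reverse arrangement, TTCNNGAA, was in none of the 7 windows and in 8.52% of all windows. Both orders of 3 alternating units with 2 free bases between them contain it, so neither could be in the 7. These orders are reverse complements and were searched on both strands, so 0.603% of all windows is their joint share. A match of letters is a description and shows no binding.

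Fst, the gene of follistatin, checked the labels: its mean was 1.18 ± 0.212 FPKM (SD, n = 3) in the controls and 57.6 ± 8.16 (n = 4) in the follistatin libraries of day 3. At day 7 it was 0.987 and 387 FPKM, and at day 14 1.04 and 1368 FPKM. FPKM per library summed to 364513 to 532859, and control day 7 replicate 1 had 16158 genes above 0 against 19383 to 20283 in the other libraries of days 7 and 14. Of 10 skeletal muscle markers, Des, Neb and Ryr1 were above 0 in every library. The other 7, among them Acta1 and Myh1, were listed at 0 in some libraries. Myh4, the fast myosin of type 2B fibres, was listed at 0 in all 4 follistatin libraries of day 3 and at 8989 to 10504 FPKM in their 3 controls. Ckm, Mylpf and Ttn were listed at 0 in all 4 follistatin libraries of days 7 and 14 and above 0 in their 3 controls. The authors marked Myh4 HIDATA at day 3, and Ckm, Mylpf and Ttn on days 7 and 14. These genes were left out of those fits, and their 0 is not read as a loss. The 4 later follistatin libraries had the lowest sums of FPKM, 364513 to 433552 against 485755 to 510584 in their controls. Fast fibre genes, some also listed at 0, summed to 20013 to 28204 FPKM there and 95343 to 100136 FPKM in those controls. The part of the zeros in the lower sums was not tested. After rescaling by the median ratio of genes, the 10 chaperone genes had the same calls in every comparison, while the split of all genes called on days 7 and 14 together turned from 247 higher and 361 lower to 388 higher and 250 lower.

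The 7 small heat shock genes summed to 1455 to 1541 FPKM in the controls of day 3 and 1731 to 2199 FPKM with follistatin. On days 7 and 14 they summed to 1644 to 1709 FPKM in the 3 controls, 2892 and 3407 FPKM with follistatin at day 7, and 4215 and 4957 FPKM at day 14. Levels of the 10 genes differed widely in control muscle. At day 3 the order of mean FPKM was Hspb6 (677), Cryab (447), Hspa8 (252), Hspb8 (182), Hspb7 (81.3), Hspb2 (52.4), Bag3 (45.0), Hspb1 (40.4), Hspb3 (30.9) and Hsp90aa1 (10.1), and no neighbours in this order overlapped over the 3 libraries. Hspb6 was the highest of the 10 in every group. With follistatin at day 14 the order began with Hspb6 (1685), Cryab (1435), Hspa8 (918), Hspb8 (915) and Hspb1 (298). There the libraries of Hspb6 and Cryab overlapped, as did those of Hspa8 and Hspb8, so these neighbours did not differ beyond their spread. Control levels of some genes stood apart between the sets: Hspa8 was 252 ± 24.3 FPKM at day 3 and 607 ± 33.8 at day 7, Hspb1 was 40.4 ± 2.34 and 85.5 ± 4.52, and Hsp90aa1 was 10.1 ± 1.73 and 22.8 ± 0.688 (SD, n = 3 and 2). The authors deposited separate tests for day 3 and for the later days, and whether the 2 sets were scaled together is not given in the sources used here. The day and the set cannot be told apart, so effects were taken within each set.

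**Figure D1:**
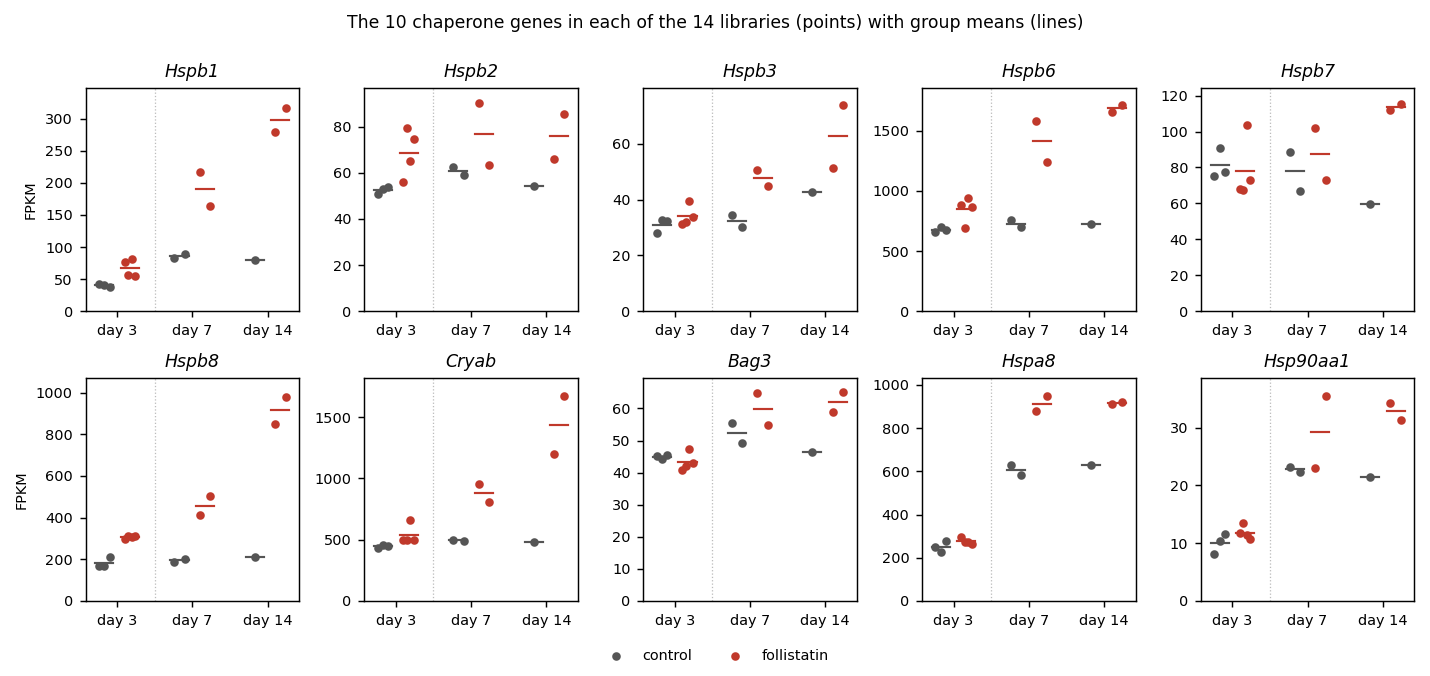
FPKM of the 10 genes (vertical axes, each from 0) in each library by day, with controls in grey, follistatin in red, points for libraries and lines for group means; the dotted line separates day 3 from days 7 and 14, which the authors tested separately. Hspb8 under follistatin stands at 297 to 311 FPKM on day 3 and at 850.3 and 979.5 on day 14, while all its controls lie between 168 and 210.1.

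Hspb8, the partner of BAG3, was the one gene of the 10 that was called at every day tested in the main fits. It lies on chromosome 5 (mm10 116408491 to 116422864, minus strand, 4 exons). Exons of each of the 10 genes are counted here after overlapping exons of all its transcripts are merged. At day 3 it stood at 168, 168 and 209 FPKM in the controls and at 297, 311, 305 and 309.9 FPKM with follistatin. The groups did not overlap, and the follistatin libraries lay close together. The change was 0.76 ± 0.085 (SE) on the scale of log2(FPKM + 1), with an adjusted p = 0.00641 from limma, and the ratio of means was 1.68. At day 7 the controls were at 187 and 204 FPKM and the follistatin libraries at 412 and 501 FPKM. At day 14 the single control was at 210.1 FPKM and the follistatin libraries at 850.3 and 979.5 FPKM. Every follistatin library was above every control on both days. The log2 change was 1.22 ± 0.132 at day 7 (limma adjusted p = 0.000855) and 2.11 ± 0.162 at day 14 (limma adjusted p = 3.45e-05), or 2.34 and 4.36 times by means. Between the follistatin libraries of day 7 and of day 14 Hspb8 rose by 1.00 ± 0.132 on the log2 scale (limma adjusted p = 0.00755), which was called in 12 of 14 fits that left out 1 library and lost, with an adjusted p of up to 0.054, without follistatin day 7 replicate 1 or follistatin day 14 replicate 2.

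Hspb1, a small heat shock protein that also caps and steadies actin filaments, rose on days 7 and 14. It lies on chromosome 5 (mm10 135887919 to 135889563, plus strand, 2 exons). On day 3 Hspb1 was at 42.2, 41.2 and 37.7 FPKM in the controls and at 76.4, 56.4, 81.9 and 54.3 FPKM with follistatin. The groups did not overlap, but the follistatin libraries fell into a higher and a lower pair. The log2 change of 0.70 ± 0.150 did not pass (limma adjusted p = 0.0693). It passed without follistatin day 3 replicate 4 (adjusted p = 0.0451) or with a filter of at least 5 FPKM (adjusted p = 0.0467, limma in both). At day 7 the controls stood at 82.3 and 88.7 FPKM and the follistatin libraries at 217 and 164 FPKM. At day 14 they stood at 80.0 FPKM against 279 and 317 FPKM. The later follistatin libraries were all well above the 3 controls. Hspb1 rose by 1.14 ± 0.201 on the log2 scale at day 7 (limma adjusted p = 0.0124) and by 1.88 ± 0.247 at day 14 (limma adjusted p = 0.00203), or 2.23 and 3.73 times by means. The annotation holds 2 other genes, 1 of them a pseudogene, with a stretch at least 95% identical to Hspb1 over at least 200 bases (the longest has 630 bases at 99.4%). How reads shared by such copies were counted is not given in the sources used here, so the level of Hspb1 is uncertain to that extent.

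Hspb6, the most abundant of the family here and a known partner of BAG3, rose on both later days. It lies on chromosome 7 (mm10 30552178 to 30555443, plus strand, 5 exons), sharing 122 exon bases with Proser3 and 3 with Lin37 on the other strand, and 77 with the microRNA gene Gm38670 on its own strand. At day 3 the controls were at 659, 699 and 673 FPKM and the follistatin libraries at 882, 691, 945 and 869 FPKM. Follistatin replicate 2 lay within the range of the controls and the other 3 above it. The log2 change of 0.31 ± 0.103 did not pass (limma adjusted p = 0.202), but without that library it was 0.41 and passed (limma adjusted p = 0.0415). At day 7 Hspb6 was at 755 and 703 FPKM in the controls and at 1583 and 1240.3 FPKM with follistatin. At day 14 it was at 729 FPKM in the control and at 1657 and 1714 FPKM with follistatin. The 3 later controls lay close to those of day 3, and no follistatin library came near them. Hspb6 rose by 0.94 ± 0.149 on the log2 scale at day 7 (limma adjusted p = 0.00715) and by 1.21 ± 0.183 at day 14 (limma adjusted p = 0.00474).

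Cryab, the alpha B-crystallin that guards desmin filaments, rose on days 7 and 14. It lies on chromosome 9 (mm10 50751325 to 50756636, plus strand, 5 exons). On day 3 Cryab was at 431, 457 and 452 FPKM in the controls and at 501, 494, 659 and 497 FPKM with follistatin. No follistatin library lay as low as a control, yet 3 of the 4 lay close to one another and replicate 3 stood apart. Its log2 change was 0.26 ± 0.106 (limma adjusted p = 0.303), and 0.15 without that replicate (limma adjusted p = 0.251). At day 7 the controls were at 499 and 493 FPKM and the follistatin libraries at 952 and 805 FPKM. At day 14 the control was at 485 FPKM and the follistatin libraries at 1199 and 1672 FPKM. The 3 later controls were nearly equal, and the follistatin libraries of day 14 were above those of day 7. Cryab rose by 0.82 ± 0.174 on the log2 scale at day 7 (limma adjusted p = 0.0282) and by 1.54 ± 0.213 at day 14 (limma adjusted p = 0.00284).

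Hspb2, a muscle small heat shock protein known to bind the kinase DMPK, lies beside Cryab on the opposite strand of chromosome 9 (mm10 50751078 to 50752354, minus strand, 2 exons). The pair shares 252 exon bases, which are 30.2% of the exon bases of Hspb2 and a smaller share of those of Cryab. The strand setting of the libraries is not given in the sources used here, and without it reads of the shared bases cannot be told apart. At day 3 Hspb2 was at 50.7, 52.8 and 53.8 FPKM in the controls and at 56.0, 79.5, 64.9 and 74.6 FPKM with follistatin. These groups did not overlap, though the highest and lowest follistatin libraries were further apart than the group means. On day 7 Hspb2 was at 62.4 and 59.1 FPKM against 90.1 and 63.2 FPKM, and at day 14 at 54.4 FPKM against 66.1 and 85.4 FPKM. On the log2 scale Hspb2 was 0.37, 0.31 and 0.46 higher at days 3, 7 and 14, and it passed at none (limma adjusted p = 0.182, 0.394 and 0.29). The libraries in which Cryab was highest, follistatin day 3 replicate 3 and follistatin day 14 replicate 2, held Hspb2 at 64.9 and 85.4 FPKM, which was not its highest level in either set. Within the follistatin libraries of day 14, both genes were higher in replicate 2 than in replicate 1. The part of shared reads in the level of Hspb2 was not tested.

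Hspb3, which forms a muscle-specific complex with HSPB2, did not pass at any day. Its gene is on chromosome 13 (mm10 113662896 to 113663676, minus strand) and has 1 exon. Levels at day 3 were 28.1, 32.5 and 32.2 FPKM in the controls and 31.3, 31.8, 39.5 and 33.6 FPKM with follistatin, and the groups overlapped. On day 7 Hspb3 was at 34.5 and 30.2 FPKM against 50.6 and 44.7 FPKM, and at day 14 at 42.7 FPKM against 51.4 and 73.8 FPKM. On the later days every follistatin library was above every control. Its log2 change was 0.54 ± 0.171 at day 7 (limma adjusted p = 0.108) and 0.52 ± 0.209 at day 14 (limma adjusted p = 0.18). It passed at day 7 only without follistatin day 14 replicate 1 or 2, and at day 14 only without follistatin day 14 replicate 1.

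Hspb7, known from heart and skeletal muscle for binding filamin C, did not pass either. Its position is chromosome 4 (mm10 141420779 to 141425311, plus strand, 3 exons). On day 3 Hspb7 was at 75.2, 90.9 and 77.7 FPKM in the controls and at 68.1, 67.4, 104 and 72.8 FPKM with follistatin. Replicate 3 of follistatin stood above all controls and the other 3 below them. The log2 change at day 3 was -0.08, with an interval from -0.43 to 0.28. At day 7 it was at 88.7 and 67.0 FPKM against 102 and 72.9 FPKM, which overlapped, and at day 14 at 59.7 FPKM against 112 and 115 FPKM. The log2 change was 0.16 at day 7 (limma adjusted p = 0.744) and 0.92 ± 0.276 at day 14 (limma adjusted p = 0.0818), where leaving out follistatin day 3 replicate 3, which enters the shared estimate of the spread, brought it to an adjusted p of 0.0436.

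Bag3, the co-chaperone that links small heat shock proteins to HSP70, passed at no day. It lies on chromosome 7 (mm10 128523616 to 128546981, plus strand, 4 exons). At day 3 it was at 45.2, 44.1 and 45.6 FPKM in the controls and at 40.8, 42.2, 47.4 and 43.1 FPKM with follistatin. For Bag3 the log2 change was -0.05, with an interval from -0.21 to 0.11, which leaves out a change of the size of Hspb8 on that day. At day 7 it was at 55.4 and 49.2 FPKM against 64.8 and 54.7 FPKM, and at day 14 at 46.6 FPKM against 58.8 and 65.1 FPKM. The groups overlapped at days 3 and 7 and not at day 14. On the log2 scale the change was 0.19 at day 7 (limma adjusted p = 0.37) and 0.40 ± 0.136 at day 14 (limma adjusted p = 0.115, interval 0.10 to 0.70). The difference between the changes of Bag3 and Hspb8 was not tested as such, and their intervals did not meet on any of the 3 days.

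Hspa8, the constitutive HSP70 of the cytosol, rose on days 7 and 14. It lies on chromosome 9 (mm10 40800984 to 40810087, plus strand, 3 exons once overlapping exons are merged). At day 3 it was at 252, 228 and 276 FPKM in the controls and at 298, 274, 273 and 266 FPKM with follistatin, and 3 of the 4 lay within the range of the controls. At day 7 it was at 631 and 583 FPKM against 877 and 948 FPKM, and at day 14 at 631 FPKM against 914 and 923 FPKM. The follistatin levels of both later days were much alike, and all lay above the 3 controls. For Hspa8 the log2 change was 0.14 at day 3 (limma adjusted p = 0.443), 0.59 ± 0.104 at day 7 (limma adjusted p = 0.0124) and 0.54 ± 0.128 at day 14 (limma adjusted p = 0.0358). The call of day 14 was kept in 6 of 13 fits that left out 1 library. Hspa8 has 9 other genes with a near-identical stretch, 8 of them pseudogenes, and its exons hold the small nucleolar RNA genes Snord14c, Snord14d and Snord14e.

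Hsp90aa1, the stress-inducible HSP90 of the cytosol and a chaperone of myosin folding, was the lowest of the 10 in every group and passed at no day. On days 7 and 14 together it passed only without follistatin day 7 replicate 1 (log2 change 0.57, limma adjusted p = 0.0218, against 0.44 and 0.12 with all libraries). Its gene is on chromosome 12 (mm10 110690605 to 110702728, minus strand, 11 exons). On day 3 Hsp90aa1 was at 8.18, 10.4 and 11.6 FPKM in the controls and at 11.8, 13.4, 11.4 and 10.7 FPKM with follistatin. On day 7 Hsp90aa1 was at 23.3 and 22.3 FPKM against 23.0 and 35.5 FPKM, and at day 14 at 21.5 FPKM against 34.3 and 31.4 FPKM. Follistatin day 7 replicate 1 was the one later follistatin library at the level of the controls. On the log2 scale it was 0.22, 0.31 and 0.59 higher at days 3, 7 and 14 (limma adjusted p = 0.462, 0.389 and 0.181). Hsp90aa1 has 3 near-identical pseudogenes, with a longest stretch of 2255 bases at 99.5%, so its level is uncertain in the same way as that of Hspb1.

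**Figure D2:**
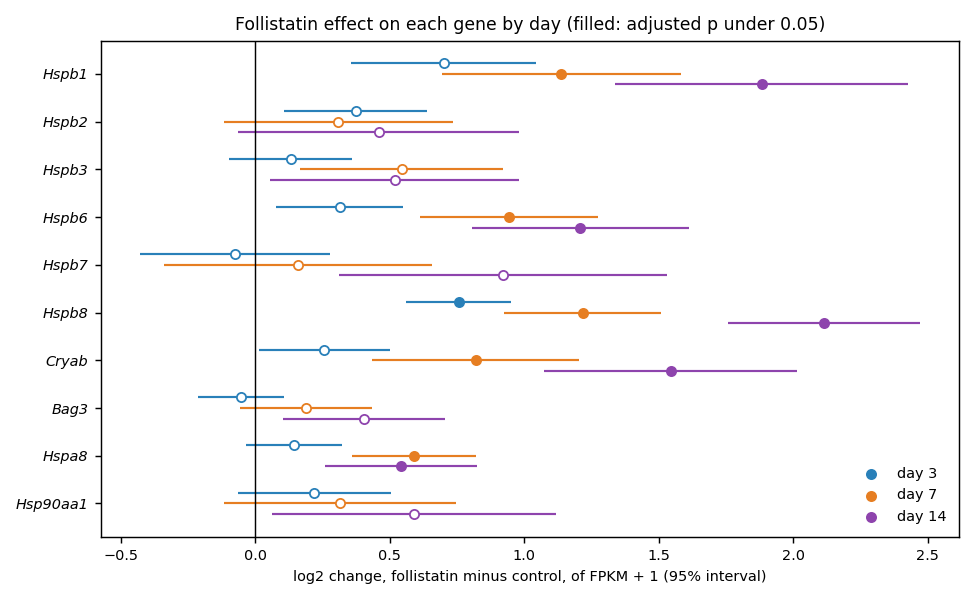
Log2 change of FPKM + 1, follistatin minus control (horizontal axis), with its 95% interval for each gene at day 3 (blue), day 7 (orange) and day 14 (purple); filled points passed at an adjusted p under 0.05. Hspb8 is filled on all 3 days, Hspb1, Hspb6, Cryab and Hspa8 on days 7 and 14, and the other 5 genes on none.

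At day 3, 1 of the 10 genes rose (Hspb8), none fell and 9 did not pass, where 1.49% of 11268 genes tested were called and 0.923% were called higher. All libraries with follistatin lay above all controls for 4 of the 10 (Hspb1, Hspb2, Hspb8 and Cryab), against 8.31% of all genes. The median log2 change of the 10 was 0.24, beside 0.01 over all genes. Without follistatin day 3 replicate 3, the library in which Hspb7 and Cryab stood apart, Hspb8 was still the only one called.

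At day 7, 5 of the 10 rose (Hspb1, Hspb6, Hspb8, Cryab and Hspa8) and none fell, where 3.69% of 11306 genes were called and 1.47% were called higher. Follistatin libraries did not overlap with controls for 7 of the 10, against 17.9% of all genes. The median log2 change was 0.57, beside -0.08 over all genes. These calls rest on a spread estimated over all 14 libraries: with days 7 and 14 alone, 0 of the 10 and 24 genes in all were called by limma. In that fit 6 of the 10 had an unadjusted p under 0.05 in limma, beside 1402 of 11047 genes tested. Hspb8 was the only one left without control day 7 replicate 1 or without replicate 2, and Hspb8 and Hspa8 were left without follistatin day 7 replicate 1.

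At day 14 the same 5 genes rose and none fell, where 5.62% of 11306 genes were called and 2.00% were called higher. All 10 genes were above the control in both follistatin libraries, against 27.0% of all genes with a single control. The median log2 change was 0.75, beside -0.08 over all genes. The single control is assumed to vary like the other groups. Hspb1, Hspb6, Hspb8 and Cryab were called in all 13 fits that left out 1 library, but with days 7 and 14 alone in the fit Hspb8 was the only one called and Hspb1 reached an adjusted p of 0.0503 in limma.

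With days 7 and 14 pooled as 3 control and 4 follistatin libraries, the same 5 genes were called, where 5.50% of 11047 genes were called and 2.24% were called higher. These libraries, controls included, are those of the comparisons by day, so the counts are not separate evidence. The log2 changes were 1.68 for Hspb8, 1.49 for Hspb1, 1.18 for Cryab, 1.08 for Hspb6 and 0.57 for Hspa8 (limma adjusted p = 0.0238, 0.0131, 0.0334, 0.00864 and 0.0167). Follistatin and control libraries did not overlap for 7 of the 10, against 8.96% of all genes. None of the 10 passed in limma without control day 7 replicate 1 or without the single control of day 14. All genes called then numbered 43 and 62. In these fits 9 and 6 of the 10 had an unadjusted p under 0.05 in limma, beside 1836 of 11056 and 2245 of 11044 genes tested. Without control day 7 replicate 2 Hspb1 and Hspb6 were left, and without follistatin day 14 replicate 1 Hspb1, Hspb6 and Hspa8.

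The authors' deposited table of Cuffdiff tests had q under 0.05 for 2 of the 10 at day 3, Hspb1 and Hspb8, where 6.25% of genes tested there had it. For days 7 and 14 together, the authors' deposited table had 7 of the 10, where 17.8% of its genes had it. These were the 5 genes above with Hspb3 (q = 0.00797) and Hspb7 (q = 0.0492). In the authors' deposited table Hspb2 had a log2 fold change of 0.38 and a q of 0.847, and Bag3 one of 0.26 and a q of 0.311.

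Whether the effect was larger on the later days was tested as the change of days 7 and 14 minus that of day 3. None of the 10 passed in limma, where 0.0884% of genes did, although 6 of the 10 had an unadjusted p under 0.05, beside 14.8% of all genes. All 6 were above 0, beside 2.99% of all genes with a difference above 0 and such a p. The differences were 0.93 ± 0.329 (SE) for Hspb8, 0.92 ± 0.269 for Cryab, 0.79 ± 0.280 for Hspb1, 0.76 ± 0.168 for Hspb6, 0.43 ± 0.109 for Hspa8 and 0.32 ± 0.126 for Bag3 on the log2 scale, with limma adjusted p from 0.145 for Hspb6 to 0.278 for Bag3. Hspb2 was at -0.01, and at 0.11 after rescaling. Hspb6 passed without follistatin day 7 replicate 2 (limma adjusted p = 0.0372). Rescaling moved the median of all genes from -0.11 to 0.00 in this comparison. Within the follistatin libraries, day 14 against day 7, Hspb8 was the only one of the 10 to pass, where 0.513% of genes did and 0.239% were higher at day 14. Cryab was 0.69 higher there (limma adjusted p = 0.123) and Hspb1 0.65 higher (limma adjusted p = 0.191), while Hspa8 differed by 0.01 with an interval from -0.22 to 0.24.

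Across the 14 libraries, with log2(FPKM + 1) centred within day 3 and within the later days, Hspb1, Hspb6, Hspb8 and Cryab followed each other with Pearson's r of 0.905 to 0.960. Hspb7 followed Bag3 (r = 0.888) more closely than any other of the 6081 genes compared. The lowest values were those of Hsp90aa1 with Hspb7 (0.287) and with Bag3 (0.265), while Hsp90aa1 and Hspb8 had an r of 0.789. Hspb2 and Cryab, which share exon bases, had an r of 0.62. Libraries of 1 set share their scaling and their group means, so these values describe the 14 libraries and have no test.

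**Figure D3:**
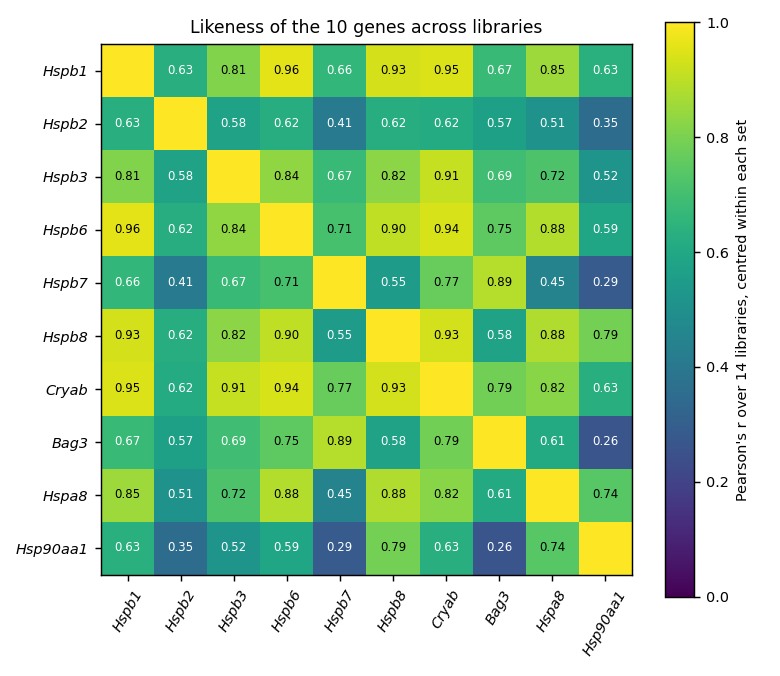
Pearson's r (colour and printed value) between each pair of the 10 genes over the 14 libraries, centred within day 3 and within days 7 and 14. Hspb1, Hspb6, Hspb8 and Cryab are bright with one another (0.905 to 0.960), and the cells of Hsp90aa1 with Hspb7 and with Bag3 are the darkest.

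Of the genes whose mean reached 5 FPKM in both sets, the 2 most like Hspb8 were Hspa5 (r = 0.987), which encodes the HSP70 of the endoplasmic reticulum, and Pdia6 (r = 0.981), a disulfide isomerase of the same compartment. Hspa5 had control means of 83.9, 83.1 and 82.4 FPKM at days 3, 7 and 14, and follistatin means of 145, 175 and 332 FPKM. Hspb1 was most like Ccdc86 (0.968) and Cited4 (0.966), Hspb6 most like Tceal5 (0.961) and Hspb1 (0.960), and Cryab most like Atp6v1g1 (0.969) and Surf4 (0.967). The closest to Hspb3 was Nxn (0.966), to Hspb2 Slc39a7 (0.908), to Hspa8 Tceal7 (0.943) and to Hsp90aa1 Enah (0.954). Bag3 and Hspb7 had each other and Nol3, which followed Bag3 with 0.884 and Hspb7 with 0.881.

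The rest of the chaperone network was read from lists of genes chosen by function. Counts of genes with an unadjusted p under 0.05 in limma are given for these lists. Over all genes tested that count was 1711 of 11268 at day 3, 2344 of 11306 at day 7 and 2486 of 11306 at day 14. Of the other small heat shock proteins, Cryaa, Hspb9 and Odf1 were under the filter, and Hspb11 had a log2 change of 0.83 at day 3 that did not pass (limma adjusted p = 0.0827). Of 12 other members of the HSP70 and HSP110 families 10 were tested, and none was called by limma at day 3, 7 or 14 (1, 2 and 4 had an unadjusted p under 0.05). That list did not hold Hspa5, so the count leaves it out. As given above, its follistatin means were 145, 175 and 332 FPKM against 83.9, 83.1 and 82.4 FPKM in controls. Hspa1l, an HSP70 related to the inducible ones, passed on days 7 and 14 together (0.49, limma adjusted p = 0.0384). The inducible Hspa1a and Hspa1b were not among the 10 genes tested at day 3 or on days 7 and 14 together. Of 17 J-domain proteins, which hand clients to HSP70, none was called by limma at day 3 or day 7 (2 and 6 had an unadjusted p under 0.05). Of all genes tested, 0.568% were called lower at day 3, 2.22% at day 7 and 3.62% at day 14. At day 14, 2 of the 17 J-domain genes fell: Dnajb5 by 0.83 and Dnajc21 by 0.68 on the log2 scale (limma adjusted p = 0.00716 and 0.0304). Of 16 HSP90 genes and co-chaperones none was called at days 3 and 7 (3 and 2 had an unadjusted p under 0.05 in limma), and Fkbp4, a co-chaperone of steroid receptors, fell by 0.65 at day 14 (limma adjusted p = 0.0187, and 0.0702 after rescaling). The single control of day 14 held Fkbp4 at 82.3 FPKM, above the control means of day 7 (64.2) and day 3 (67.0). Its follistatin means were 73.0 FPKM at day 7 and 52.1 FPKM at day 14. On days 7 and 14 together the log2 change of Fkbp4 was -0.18 (limma adjusted p = 0.537).

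The cytosolic chaperonin, encoded by Tcp1 and the Cct genes, folds actin and tubulin. The list read here also holds Hspd1 and Hspe1 of the mitochondrial chaperonin. Of 15 chaperonin and prefoldin genes, 1 rose at day 3, 2 at day 7 and none at day 14 (2 had an unadjusted p under 0.05 in limma), and none fell. Cct5 had a log2 change of 0.44 at day 3 and 0.43 at day 7 (limma adjusted p = 0.0268 and 0.0465), and Cct3 of 0.52 at day 7 (limma adjusted p = 0.0214). The log2 change was above 0 in 14 of the 15 on each day, with medians of 0.18, 0.19 and 0.24. Over all genes tested it was above 0 in 5926 of 11268 at day 3, 4317 of 11306 at day 7 and 4522 of 11306 at day 14, with medians of 0.01, -0.08 and -0.08, and 0.923%, 1.47% and 2.00% were called higher. Of the BAG family and HSP70 cofactors, Bag2, which restrains the ubiquitin ligase CHIP, had a log2 change of 0.58 at day 7 (limma adjusted p = 0.0345), and Bag6 fell by 0.59 at day 14 (limma adjusted p = 0.0456, and 0.131 after rescaling). Of the heat shock factor genes Hsf1, Hsf2 and Hsf4, and of Hsbp1, whose protein binds HSF1, none passed on any day by limma, and 0 had an unadjusted p under 0.05. Hsf1 was at 22.2 ± 0.884 FPKM in controls (SD, n = 3) and 25.1 ± 1.75 with follistatin (n = 4) at day 3.

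Of 12 partners of chaperone-assisted autophagy, 1 fell and none rose on each day (4, 5 and 5 had an unadjusted p under 0.05 in limma). Of all genes, 0.568%, 2.22% and 3.62% were called lower at days 3, 7 and 14. The log2 change was above 0 in 5, 4 and 6 of the 12 on these days. At day 3 the gene that fell was Sqstm1, the ubiquitin-binding autophagy receptor p62, which went from 279 ± 10.6 FPKM to 208 ± 7.79 (SD, n = 3 and 4). Its log2 change was -0.42 (limma adjusted p = 0.0133). At days 7 and 14 it was Map1lc3b, a protein of the autophagosome membrane, which fell by 0.61 and 0.63 on the log2 scale (limma adjusted p = 0.014 and 0.0248). After rescaling the adjusted p of Map1lc3b was 0.0507 and 0.0821, so those 2 calls depend on the scaling. Flnc, the filamin that BAG3 delivers to autophagy, was at 85.8 FPKM in controls and 110.5 FPKM with follistatin at day 3, and at 98.1 and 147 FPKM at day 14 (limma adjusted p = 0.242 and 0.264). Synpo2, another partner that was not called, was at 78.9 and 66.5 FPKM at day 3, and at 88.7 and 44.0 FPKM at day 14.

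Of 18 Z-disc and filament genes, the proteins these chaperones are known to bind, 18 were tested at day 3 and 16 later. Pdlim3, a protein of the Z-disc bound to alpha-actinin, rose by 0.51 at day 3, 0.71 at day 7 and 1.42 at day 14 on the log2 scale (limma adjusted p = 0.0271, 0.00718 and 0.00026). At day 7, Pdlim3, Pdlim7 and Nes rose and Synm, an intermediate filament protein of desmin networks, fell by 0.85. At day 14, Pdlim3 and Nes rose and Csrp3, the muscle LIM protein, fell by 2.14 (limma adjusted p = 0.0233). Des, the desmin client of Cryab, was at 957 FPKM in controls and 880 FPKM with follistatin at day 3, and at 866 and 1153 FPKM at day 14, and passed on neither day (limma adjusted p = 0.554 and 0.272). Of 9 slow fibre genes Casq2, a calcium store protein, was the only one that passed on each day (0.94, 1.45 and 1.22). The slow fibre list as a whole had a log2 change above 0 in 7 of 9 tested at day 3. It was above 0 in 4 of 8 at day 7 and 3 of 8 at day 14, with list medians of 0.32, 0.005 and -0.47. The 13 fast fibre genes were left out of the fits of the later days, because the authors marked each of them HIDATA there. Myh2, the fast myosin of type 2A fibres, was above 0 in those libraries, at 127 ± 44.6 FPKM in the controls of days 7 and 14 (SD, n = 3) and 38.3 ± 19.3 with follistatin (n = 4), a difference that was not tested. In day 3 fits that left out 1 library, Sqstm1 was called in 4 of 7, Pdlim3 in 2, and Cct5 and Casq2 in 1 each. At day 7, Synm was called in 14 of 14 such fits, Pdlim3 in 13, Pdlim7 in 12, Cct3 in 11, Bag2 in 8 and Cct5 in 2. At day 14, Pdlim3, Nes, Dnajb5 and Fkbp4 were called in 13 of 13, Dnajc21 and Csrp3 in 12 (not without follistatin day 14 replicate 2), Casq2 in 4 and Bag6 in 3. No such fit of day 14 left out its single control. Hspa1l on days 7 and 14 together was called in 1 of 7.

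**Figure D4:**
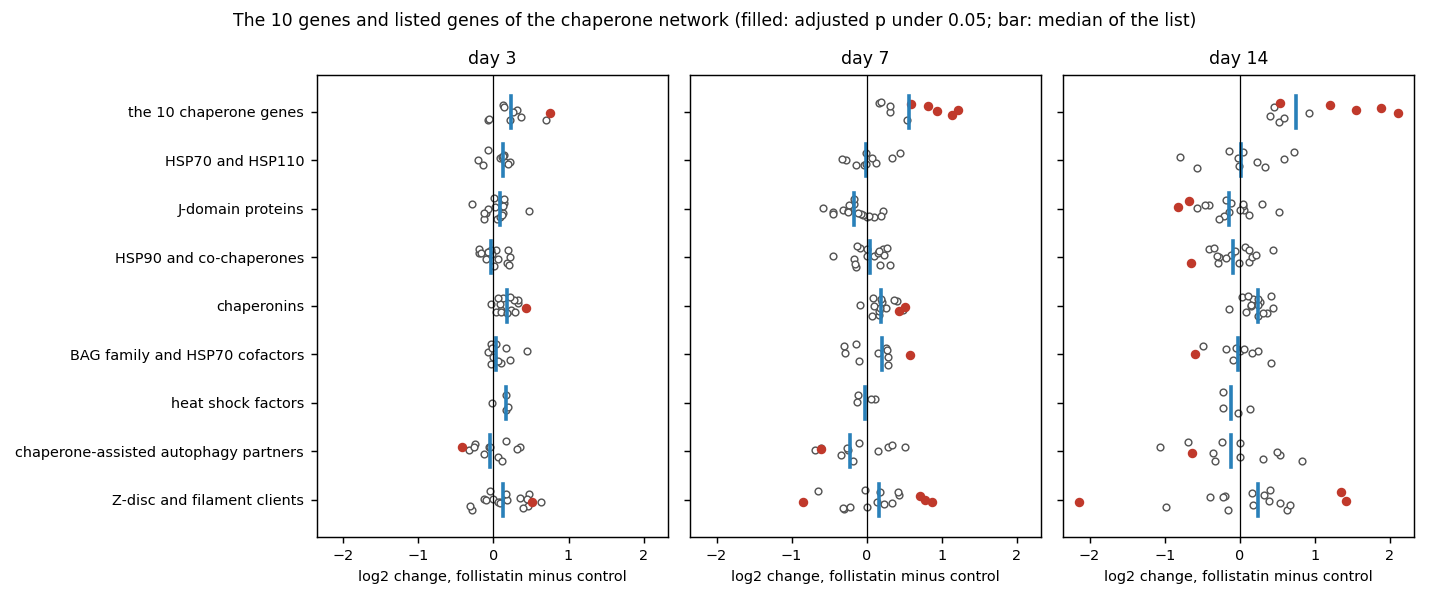
Log2 change of FPKM + 1, follistatin minus control (horizontal axes), of the 10 chaperone genes and of each tested gene of the lists (points), at day 3, 7 and 14; filled points passed at an adjusted p under 0.05 and blue bars are list medians. The 10 genes have medians of 0.24, 0.57 and 0.75, and the chaperonins lie at 0.18 to 0.24.

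Markers of other cells were read beside these changes. Over all genes tested, 1711 of 11268 had an unadjusted p under 0.05 in limma at day 3 and 2344 of 11306 at day 7. That count was 2486 of 11306 at day 14 and 3124 of 11047 on days 7 and 14 together. At day 3 none of 15 endothelial markers had a log2 change above 0 and none passed in limma (4 had an unadjusted p under 0.05), with summed levels of 224 to 242 FPKM in controls and 187 to 213 FPKM with follistatin. At day 7 the sum was 248 to 286 FPKM in controls and 188 to 208 FPKM with follistatin, and 1 of the 15 fell. At day 14 it was 224 FPKM in the control and 128 to 152 FPKM with follistatin, and 3 fell (1 after rescaling). Of all genes tested, 2.22% were called lower at day 7 and 3.62% at day 14. Smooth muscle and pericyte markers summed to 228 FPKM and to 92.2 to 164 FPKM at day 14, and 3 of 11 tested fell (1 after rescaling). At day 7 their sums were 232 to 284 and 164 to 185 FPKM, and none was called by limma (5 had an unadjusted p under 0.05). Schwann cell markers summed to 95.1 FPKM in the day 14 control and to 20.2 to 22.6 FPKM with follistatin. Of these, 4 of 5 tested fell (4 after rescaling). That 1 control stood apart from the controls of day 7, at 42.9 to 50.5 FPKM, and of day 3, at 34.5 to 45.9 FPKM. With follistatin the sum was 34.4 to 37.0 FPKM at day 7, and none of the 5 was called by limma at day 7 or on days 7 and 14 together (1 and 4 had an unadjusted p under 0.05). Macrophage markers summed to 48.0 FPKM and to 94.0 to 243 FPKM at day 14, with a log2 change above 0 in 10 of 10 and none called by limma (4 had an unadjusted p under 0.05). The day 14 control was the lowest control, and the others were at 54.6 to 128 FPKM at day 7 and 163 to 244 FPKM at day 3. At day 7 the follistatin libraries were at 76.2 to 87.4 FPKM, with a log2 change above 0 in 7 of 10 and a median of 0.04. Of fibroblast, neutrophil, adipocyte, tendon and red blood cell markers, 1 tendon marker fell at day 14, a call lost after rescaling. None other was called at day 3, 7 or 14. In the same order, the list medians of the log2 change were -0.21, 0.36, 0.15, -0.42 and 0.09 at day 7. At day 14 they were -0.06, 0.18, -1.15, -0.71 and -1.10. There 1 of 11, 0 of 2, 3 of 4, 2 of 5 and 0 of 4 tested had an unadjusted p under 0.05 in limma. No marker in the files of these cell types was at 0 in all libraries. In bulk muscle, fewer cells of a type and less RNA per cell cannot be told apart, and the part of these shifts in the changes of the chaperone genes was not tested.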

How the data were processed

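FPKM per gene were deposited by the authors for 14 libraries, which were prepared with a TruSeq kit, per the labels' protocols. TopHat, Cuffdiff and mm10 are named in the submitters' processing notes, and versions are not given in the sources used here. The authors' deposited tables also hold log2 fold changes, scores (the Cuffdiff test statistic), p-values and q-values for day 3 and for days 7 and 14 together. Genes whose symbols had become dates (27) and genes marked HIDATA by the authors (4 and 31) were left out. Read depth is unknown.

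Log2(FPKM + 1) was fitted with limma 3.58.1 in R 4.3.3 (lmFit, eBayes with trend), two-sided, with Benjamini-Hochberg adjustment over all genes and a call under 0.05. The added 1 makes changes of low genes smaller. Day 3, and days 7 and 14 together, were fitted alone, while single days, the later minus earlier effect and follistatin day 14 minus day 7 used all 14 libraries. Alternatives were a pseudocount of 0.1, other filters, rescaling by the median ratio, a replicate block, another set of libraries in the fit, and leaving out each library. Scripts were tested on simulated data. Intervals are 95%. The genes and lists were chosen with earlier results of these data known. Named are the 10 genes, Fst, up to 2 called genes in each direction of each list, the 2 genes most like each of the 10 and genes sharing exon bases. Hspb11, Flnc, Synpo2, Nes at day 7, Des, Hsf1, Myh2, the muscle markers and the genes of lists named without a call were added after their values were seen. Positions are from GENCODE M21 on mm10, and exon counts are of merged exons, which can differ from those of a single transcript.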

Additional observations from a re-analysis of the deposited data

Results flagged for a closer look

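In the 4 follistatin libraries of day 3, replicate 3 stood apart from the other 3 for 2 of the 10 genes. Cryab was at 659 FPKM there and at 494 to 501 FPKM in the others, a gap of 0.958 of the whole range. Hspb7 was at 104 FPKM there and at 67.4 to 72.8 FPKM in the others, a gap of 0.852 of the range. Chance alone flags about 1 in 20 groups, and 10 groups were looked at. The same library held the highest level of Hspb1, Hspb3, Hspb6 and Bag3 among the 4, at 81.9, 39.5, 945 and 47.4 FPKM, but not of Hspb8 (305 FPKM). Without it the log2 change of Hspb7 at day 3 was -0.22 in place of -0.08, and that of Cryab 0.15 in place of 0.26, and neither passed.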

How the results depend on the processing

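The count of the 10 genes called was within 1.5 times of the reported one under a pseudocount of 0.1 and under rescaling in every comparison. It moved as follows. With a filter of at least 5 FPKM it was 2 at day 3. Without a filter it was 3 on days 7 and 14 together, and all genes called were 284 there, 2 for the later minus earlier effect and 106 for follistatin day 14 minus day 7. With days 7 and 14 alone in the fit it was 0 at day 7, 1 at day 14 and 0 for follistatin day 14 minus day 7, and all genes called were 24, 56 and 14. With a replicate block it was 0 at day 3, 2 on days 7 and 14 together, 1 at day 7 and 1 at day 14, and all genes called were 19, 164, 81 and 84, and 3 for the later minus earlier effect. The labels do not say that a number pairs libraries. At day 3 same-numbered libraries did not deviate together (r of -0.0479, -0.0562 and -0.0331), and no library was most like its own number. Pairing could not be judged at day 7, where 2 libraries a group fix the size of r, or at day 14 with 1 control. The block could not be fitted for follistatin day 14 minus day 7, nor day 14 without its control.

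Leaving out 1 library gave 1 to 2 of the 10 at day 3, 0 to 6 on days 7 and 14 together, 1 to 6 at day 7, 4 to 6 at day 14, 0 to 1 for the later minus earlier effect and 0 to 2 for follistatin day 14 minus day 7. All genes called were 39 to 165, 43 to 907, 111 to 981, 311 to 1574, 2 to 32 and 38 to 604.

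Signs turned only for changes of the 10 genes that were not called. Hspb7 was 0.0058 at day 3 without control day 3 replicate 2 (range over single libraries left out -0.22 to 0.0058), and -0.041 and -0.079 at day 7 without control replicate 2 or follistatin replicate 1 (range -0.079 to 0.398). For the later minus earlier effect Hspb2 was 0.111 after rescaling, and above 0 without 1 of 6 libraries (range -0.107 to 0.069). For follistatin day 14 minus day 7 Hspb2 was 0.052 after rescaling, and 0.25 and 0.18 without follistatin day 7 replicate 1 or day 14 replicate 1 (range -0.258 to 0.25). There Hspa8 was -0.046 and Hsp90aa1 -0.11 without follistatin day 7 replicate 1 (ranges -0.046 to 0.066 and -0.11 to 0.495), and Bag3 was -0.065 and -0.017 without follistatin day 7 replicate 2 or day 14 replicate 2 (range -0.065 to 0.174). The causes were not tested. Rescaling turned the split of called genes to mostly higher at day 7 (166 higher and 251 lower to 244 and 180), at day 14 (226 and 409 to 341 and 254) and for follistatin day 14 minus day 7 (27 and 31 to 48 and 22). Later groups hold 1 or 2 libraries, and without read counts the counting error is unknown.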
